A study of Mus musculus with 27 samples.

Results

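The doublecortin family and the classical microtubule-associated proteins (MAPs) were followed through adult neurogenesis of the mouse olfactory system. The 10 genes, Dcx, Dclk1, Dclk2, Map1a, Map1b, Map2, Map4, Mapt, Map6 and Pafah1b1, were taken by symbol from the 45195 genes of the deposited count table, and all 10 were measured and passed the filter on low counts in every fit. The study profiled 4 stages in adult male mice on a C57BL/6 background, aged 8 to 12 weeks, all given tamoxifen by gavage at 200 mg per kg in 2 to 3 doses. Total mRNA came from 200 to 500 living eYFP-positive cells sorted from 1 to 2 mice per library, with 3 libraries per stage: the SVZ (subventricular zone) gave the stem cells, called NSC, and the early neuroblasts, called ENB, and the OB (olfactory bulb) gave late neuroblasts, LNB, and the cells called Neuron. Ribosome-bound mRNA was precipitated with an anti-HA antibody from whole homogenised tissue, in 3 libraries for LNB and 2 for every other stage. The controls without HA, for which the labels give a mix of cell types, were 3 SVZ and 3 OB precipitates, and the names of 2 of the SVZ controls mark them as lacking Cre.

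The NSC libraries are named for the TiCRY line (Tlx-CreER-Rpl22.HA-eYFP), in which the promoter of the stem cell receptor Tlx drives an inducible Cre. ENB and LNB libraries are named for the DiCRY line (Dcx-CreER-Rpl22.HA-eYFP), in which Dcx drives the Cre, so the level of Dcx in these cells is not independent of how they were labelled. Neuron names carry "Dxc4wpi", where 4 is followed by wpi, and no field spells out the genotype. In both lines the Cre turns on eYFP and an HA-tagged ribosomal protein Rpl22. The names of the precipitates carry 4d for NSC and 3 with dp or dpi for ENB and LNB. ENB and LNB share some animals. The Neuron precipitates were grouped by their titles, although their sample type field names total mRNA and their protocol describes sorting.

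Microtubule-associated proteins bind along the microtubule wall, where they set the stability, bundling and spacing of the polymer and the access of motors. Doublecortin and its kinase-bearing relatives bind the microtubule lattice of migrating neuroblasts, and mutations of human DCX and of PAFAH1B1, which encodes the dynein regulator LIS1, cause lissencephaly. MAP1B is abundant in growing axons, whereas MAP1A, MAP2, tau and MAP6 are known from the cytoskeleton of mature neurons, and MAP4 is the broadly expressed member of the MAP2 and tau family.

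The set of promoters used here, drawn from RefSeq's GRCm38.p6 annotation, held entries for 8 of the 10 members. Mapt and Map6 had no entry in that set, and whether the annotation itself holds their start sites was not checked. Of the members with an entry, the 4 with the largest total mRNA change between neighbouring stages are shown. They run from 250 bases before to 50 bases after the annotated start, for Dcx the first of 2 in the set, 5′ to 3′ on the gene's own strand. Capitals mark the TATA box letters TATAAA, the CCAAT box, the GC box letters GGGCGG and the E-box letters CANNTG, each searched on both strands.
Dcx, chrX:143933170-143933469, minus strand: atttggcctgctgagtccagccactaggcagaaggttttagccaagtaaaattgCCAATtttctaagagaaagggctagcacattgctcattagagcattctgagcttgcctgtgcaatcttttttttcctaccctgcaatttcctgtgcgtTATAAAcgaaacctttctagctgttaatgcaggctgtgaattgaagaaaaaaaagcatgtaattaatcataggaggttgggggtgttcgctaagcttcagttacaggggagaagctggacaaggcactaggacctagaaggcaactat
Dclk2, chr3:86920835-86921134, minus strand: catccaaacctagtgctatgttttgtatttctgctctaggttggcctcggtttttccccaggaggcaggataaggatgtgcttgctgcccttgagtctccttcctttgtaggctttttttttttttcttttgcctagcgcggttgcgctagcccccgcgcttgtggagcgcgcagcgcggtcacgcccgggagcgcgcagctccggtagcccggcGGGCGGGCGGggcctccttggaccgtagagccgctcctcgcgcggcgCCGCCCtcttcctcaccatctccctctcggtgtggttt
Map1a, chr2:121289352-121289651, plus strand: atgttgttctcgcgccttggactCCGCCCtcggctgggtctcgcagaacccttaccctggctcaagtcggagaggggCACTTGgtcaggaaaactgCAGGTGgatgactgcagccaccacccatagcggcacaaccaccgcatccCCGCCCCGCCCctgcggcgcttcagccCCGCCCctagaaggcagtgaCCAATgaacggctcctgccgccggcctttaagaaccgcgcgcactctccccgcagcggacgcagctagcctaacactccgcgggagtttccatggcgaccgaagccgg
Map1b, chr13:99516553-99516852, minus strand: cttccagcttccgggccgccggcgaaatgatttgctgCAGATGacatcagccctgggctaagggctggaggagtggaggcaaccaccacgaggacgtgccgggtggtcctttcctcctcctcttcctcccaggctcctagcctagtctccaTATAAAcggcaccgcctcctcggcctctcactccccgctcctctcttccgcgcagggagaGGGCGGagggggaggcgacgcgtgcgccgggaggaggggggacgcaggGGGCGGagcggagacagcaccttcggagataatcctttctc

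The Dcx window shown had 43% G and C and 3 CpG dinucleotides, against medians of 52.7% and 7 over the 32851 windows of the set. It held TATAAA, present in 13.6% of all windows, and CCAAT, present in 37.4%. The window of the second Dcx start, chrX:143933075-143933374, overlaps it and is not shown. That window had 44.7% G and C and 3 CpG dinucleotides, with 1 match each of TATAAA and CCAAT. The Dclk2, Map1a and Map1b windows had 61.3%, 65.7% and 65.7% G and C with 27, 27 and 23 CpG dinucleotides, above the upper quartiles of 61.7% for G and C in Map1a and Map1b and of 20 CpG in all of them. GGGCGG, found in 35.7% of windows, occurred 3 times for Dclk2, 4 times for Map1a and 2 times for Map1b, and Map1b also held TATAAA. No CANNTG was found in the Dcx and Dclk2 windows, while 72.3% of all windows held it. These matches describe the letters of the windows only.

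Levels are given as CPM, counts scaled to a common library size with edgeR's TMM factors over the 27 libraries. Changes are on the log2 scale, from the quasi-likelihood test in edgeR, and were called at a Benjamini-Hochberg adjusted p under 0.05 over all genes tested. The test gives no SE, so the SE shown is the absolute change divided by the square root of the test's F statistic. Library totals ran from 5225929 to 15994635 counts in total mRNA, 6325479 to 13316334 in the precipitates and 5960357 to 9120659 in the controls. Because some libraries share animals, p-values cover the spread between libraries only. Summed stem cell markers were at least 6112 CPM in every NSC library and 884 to 1127 CPM in ENB, summed neuroblast markers 12290 to 13113 CPM in ENB, and summed neuron markers 8119 to 12574 CPM in Neuron. Late neuroblast total libraries 1 and 3 stood apart, with 7033 and 10029 CPM of stem cell markers and 4853 and 6851 CPM of astrocyte markers, against 1196 and 839 CPM in library 2. Their neuroblast markers summed to 8014 and 5203 CPM, against 13762 CPM in library 2. Results that use late neuroblast total mRNA are therefore also given without libraries 1 and 3, a choice made after these values were seen, and the lone library is then assumed to vary like the other groups. Neuron total library 2 also stood out, with 4753 CPM of stem cell and 3788 CPM of astrocyte markers, against 2278 and 1797 CPM in Neuron library 1 and 1126 and 779.8 CPM in Neuron library 3.

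In total mRNA, the early neuroblasts carried several-fold more mRNA of Dcx, Dclk2 and Map1b than the stem cells, and less of Map1a. Of the 10 members 4 rose (Dcx, Dclk2, Map1b and Map2) and 1 fell (Map1a), where 10.1% of all 17592 genes tested were called (4.95% higher, 5.12% lower). The members' median change was 0.68, against -0.01 over all genes. Of the 8 oligodendrocyte precursor markers 4 were also called higher in ENB (median 3.34), with sums of 736, 384 and 703 CPM in ENB, against 31.1, 64.3 and 182 CPM in NSC, and their part in the step was not tested. From early to late neuroblasts 1 of 10 changed (Dclk2 fell), with 3.77% of all genes called (2.8% higher, 0.966% lower). In neurons against late neuroblasts 2 rose (Map1a and Map6) and 2 fell (Dcx and Dclk2), with 14.7% of all genes called (5.33% higher, 9.34% lower). Without LNB libraries 1 and 3, which leaves 1 LNB library, the Dclk2 change in LNB against ENB was -0.54. In Neuron against LNB the changes were then -3.12 for Dcx, -2.02 for Dclk2, 1.87 for Map1a and 2.46 for Map6. Map1b, not called with all LNB libraries, then stood at -1.13. Against the stem cells, neurons were higher for 6 members (Dclk1, Map1a, Map1b, Map4, Map6 and Pafah1b1) and lower for none, with 23.7% of all genes called (11% higher, 12.8% lower). Among them edgeR and DESeq2 each called 0 lower, and 1, Dclk2, was lower at an unadjusted p under 0.05. It reached a change of -0.67 ± 0.23 with an adjusted p of 0.0504 in edgeR, just outside the threshold. In Neuron against NSC 6 of 8 oligodendrocyte precursor markers were also called higher (median 3.87). The 8 summed to 810 to 1541 CPM in Neuron, against 31.1 to 182 CPM in NSC. Of 8 glutamatergic neuron markers 4 were called higher (median 5.22). These summed to 818 to 1063 CPM in Neuron, against 4.12 to 66.1 CPM in NSC. EdgeR called 0 of either list lower, and the part of these cells in the changes was not tested. Neighbouring steps share a stage's libraries, so their values are not independent. Total libraries carried either of 2 second sequencing indexes, and within index 1 and index 2 the ENB against NSC changes were 2.95 and 3.19 for Dcx, 1.87 and 2.08 for Dclk2, 2.43 and 1.86 for Map1b, 0.99 and 1.02 for Map2, and -1.35 and -0.80 for Map1a. The LNB against ENB change of Dclk2 was -0.41 and -1.56. Neuron libraries all carried index 1, where the changes against its 1 LNB library were -3.17 for Dcx, -2.05 for Dclk2, 1.81 for Map1a and 2.42 for Map6.

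**Figure D1:**
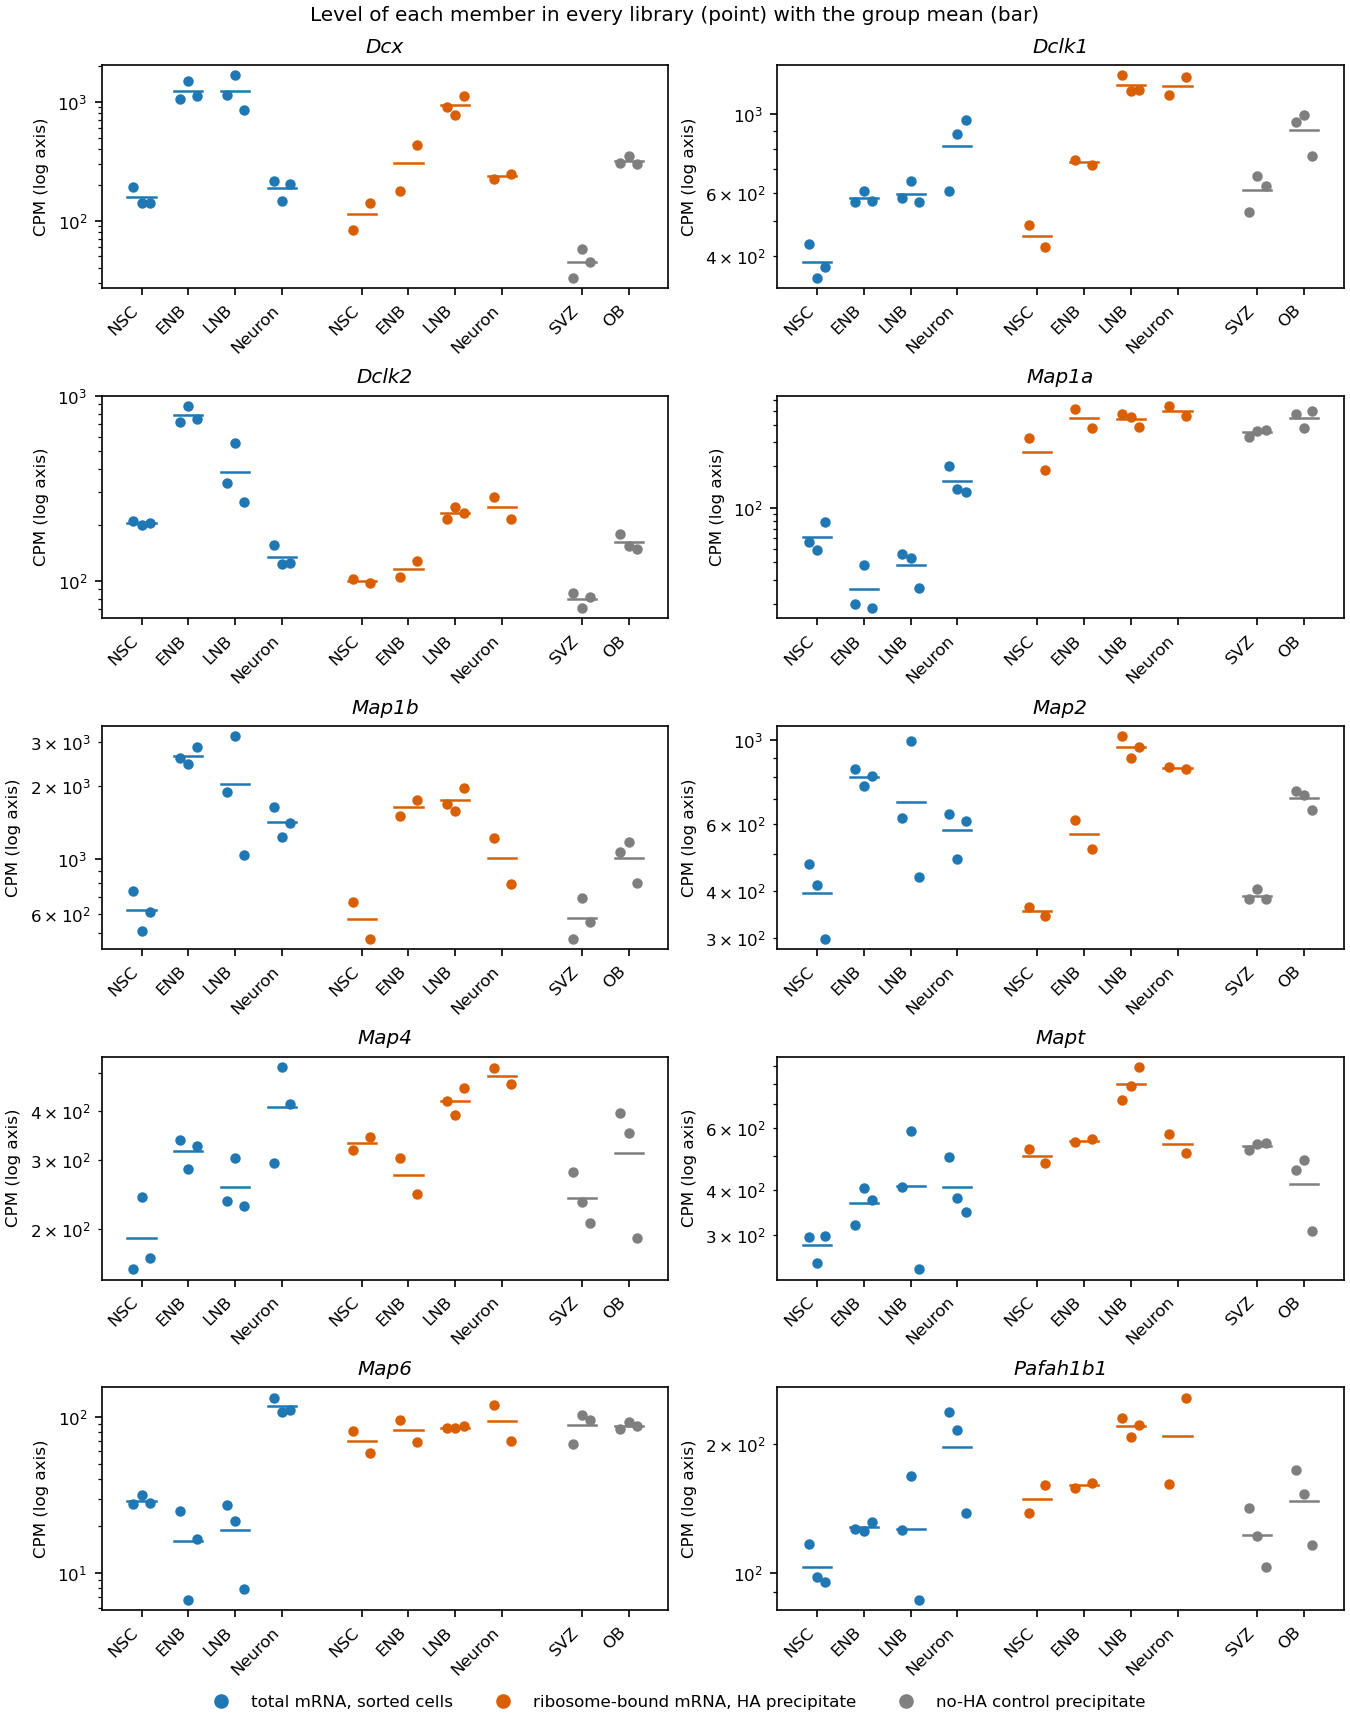
CPM of each member on a log axis (y, a range of its own in each panel) in every library, by stage (x), for total mRNA of sorted cells, ribosome-bound mRNA of HA precipitates and the no-HA controls of the SVZ and the OB. Points are libraries and bars group means. Dcx and Dclk2 peak in neuroblast total mRNA, Map1a and Map6 are highest in Neuron among the total libraries, and Map1a and Map6 have precipitate values around those of the controls.

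Dcx (ENSMUSG00000031285, GRCm38.p6 chromosome X, 143855842 to 143933396), the founding member of the family, rose and fell with the neuroblast state. Its level was 1052, 1511 and 1110.3 CPM in ENB, against 193, 139.7 and 142 CPM in NSC. The groups were far apart, a change of 2.97 ± 0.28 or 7.81-fold (adjusted p = 0.00055). LNB had 1153, 1673 and 852 CPM, which overlapped ENB, and the change was -0.03 ± 0.26 (adjusted p = 0.98). In Neuron it was 217, 146 and 203 CPM, all below LNB, and Dcx fell by 2.74 ± 0.28 on the log2 scale, 6.68-fold (adjusted p = 0.00016). Without LNB libraries 1 and 3 this was -3.12. Neuron and NSC levels overlapped (0.20 ± 0.26, adjusted p = 0.62). The 10 neuroblast markers, which leave out Dcx, summed to 3084 to 3994 CPM in NSC, against 1049 to 1114 CPM in Neuron. The part of neuroblasts in the Dcx level of the NSC libraries was not tested. In bulk libraries fewer cells of a type and less mRNA per cell cannot be told apart, for Dcx as for every member.

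Dclk1 and Dclk2 (ENSMUSG00000027797, chromosome 3, 55242303 to 55539068, and ENSMUSG00000028078, chromosome 3, 86786150 to 86920952) encode kinases with doublecortin domains, and Dclk2 was called at every neighbouring step while Dclk1 was called at none. Dclk2 had 722, 882 and 749.6 CPM in ENB, against 211, 201 and 206 CPM in NSC, a rise of 1.94 ± 0.23 or 3.84-fold (adjusted p = 0.0011). It fell to 336, 554 and 265 CPM in LNB, all below ENB, a change of -1.06 ± 0.23 (adjusted p = 0.031). That call is not firm: leaving out any 1 ENB library, LNB library 1 or LNB library 3 gave adjusted p of 0.084 to 0.117, and without both LNB libraries 1 and 3 the change was -0.54 (adjusted p = 0.81), when 0.0383% of all genes were called. In Neuron Dclk2 was 156, 122 and 125 CPM, again below every LNB library, a fall of 1.56 ± 0.23 on the log2 scale, 2.94-fold (adjusted p = 0.0013), and -2.02 without LNB libraries 1 and 3.

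Dclk1 climbed in small steps. It had 432, 347 and 372 CPM in NSC, 566, 607 and 570.2 CPM in ENB, 581, 649 and 566 CPM in LNB, and 607, 879.8 and 962 CPM in Neuron. No neighbouring step was called (0.61 ± 0.20, 0.03 ± 0.20 and 0.39 ± 0.20, adjusted p = 0.070, 0.97 and 0.20), but every Neuron library lay above every NSC library, a rise of 1.03 ± 0.20 or 2.05-fold (adjusted p = 0.0032). The gene-level counts do not separate the long Dclk1 transcripts from the shorter ones, nor the isoforms of Map2, Map4, Mapt and Map6.

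The MAP1 pair changed in opposite directions at the ENB step. Map1b (ENSMUSG00000052727, chromosome 13, 99421464 to 99516602), the MAP of growing axons, had 2588, 2447 and 2882 CPM in ENB, against 745, 508 and 612 CPM in NSC, a rise of 2.10 ± 0.31 or 4.28-fold (adjusted p = 0.0028). Map1a (ENSMUSG00000027254, chromosome 2, 121289590 to 121310832), its counterpart in mature neurons, had 19.9, 38.1 and 18.6 CPM in ENB, against 56.3, 49.5 and 78.3 CPM in NSC, a change of -1.25 ± 0.34 (adjusted p = 0.038). The Map1a groups did not overlap, but the call was lost on leaving out any NSC library, or ENB library 1 or 3 (adjusted p = 0.0554 to 0.142).

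Map1b varied widely in late neuroblasts. It had 1886, 3171 and 1040.1 CPM in LNB, which spanned the ENB values (-0.41 ± 0.30, adjusted p = 0.54), and Map1a 45.9, 43.3 and 26 CPM (0.57 ± 0.34, adjusted p = 0.42). In Neuron Map1a reached 199.9, 136 and 131 CPM, above every library of the other stages, a rise of 1.96 ± 0.34 over LNB or 3.90-fold (adjusted p = 0.0032); without LNB libraries 1 and 3 it was 1.87 with an adjusted p of 0.055. Map1b had 1627, 1239 and 1413 CPM in Neuron, a change of -0.54 ± 0.30 against LNB (adjusted p = 0.25), and without LNB libraries 1 and 3 it was called lower, at -1.13 (adjusted p = 0.017). Against NSC, neurons were higher for Map1a by 1.28 ± 0.34 (adjusted p = 0.017) and for Map1b by 1.14 ± 0.30 (adjusted p = 0.018). Map1a lost that call without NSC library 1 or 2 or Neuron library 1 (adjusted p = 0.0536 to 0.0734), and Map1b without NSC library 2 or 3 or Neuron library 1 (adjusted p = 0.0506 to 0.0922).

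Levels of different genes can be set beside each other only per transcript length, which the deposited TPM provide. In total mRNA the ratio of Map1b to Map1a TPM was 11.8, 8.22 and 5.64 in the NSC libraries, 115, 56.8 and 123 in ENB, 37.8, 50.6 and 32.4 in LNB, and 6.74, 6.59 and 5.36 in Neuron. The ENB ratios lay above all others, the LNB ratios between, and the NSC and Neuron ranges overlapped. Dcx TPM were 0.361, 0.323 and 0.246 of Dclk1 TPM in NSC, 0.778, 1.28 and 0.797 in ENB, 1.16, 1.53 and 1.03 in LNB, and 0.355, 0.136 and 0.208 in Neuron. Dclk2 was at 0.680 to 0.692 of Dclk1 in NSC, 0.849 to 1.12 in ENB, 0.527 to 0.882 in LNB and 0.164 to 0.336 in Neuron. Dclk1 thus led the pair in every NSC, LNB and Neuron total library, by the most in Neuron.

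**Figure D2:**
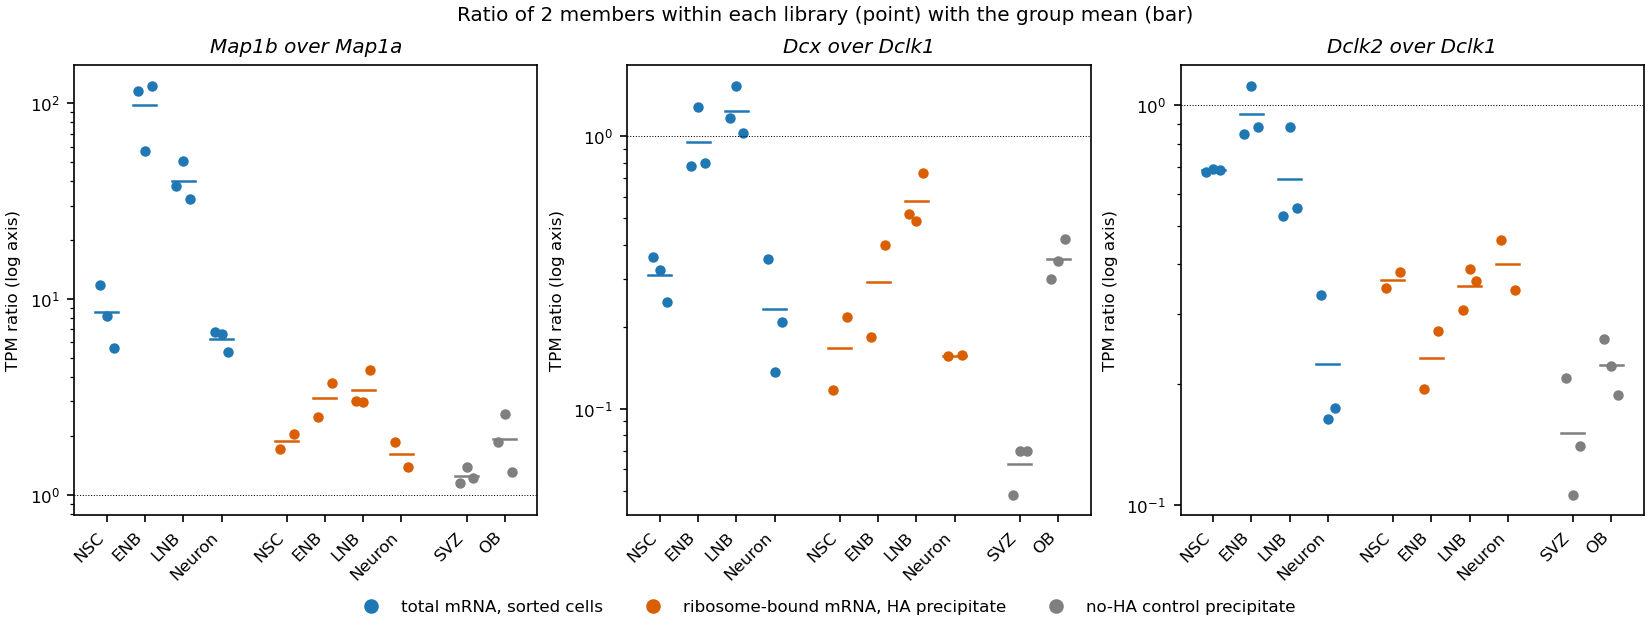
Ratio of the TPM of Map1b to Map1a, Dcx to Dclk1 and Dclk2 to Dclk1 on log axes (y) in each library (points, bars are group means) by stage and kind of library (x); the dotted line marks equal TPM. In total mRNA the Map1b to Map1a ratio runs from 56.8 to 123 in ENB, while in the precipitates it stays between 1.38 and 4.33. NSC (1.72 and 2.03) and ENB (2.48 and 3.73) precipitates lie above the SVZ controls (1.14 to 1.38). LNB precipitates (2.98 to 4.33) lie above the OB controls (1.31 to 2.58), and Neuron precipitates (1.38 and 1.86) overlap them.

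Among the classical MAPs, Map2 (ENSMUSG00000015222, chromosome 1, 66175202 to 66442583), the dendritic MAP, had 839, 759 and 805 CPM in ENB, against 471, 414 and 299 CPM in NSC, a rise of 1.03 ± 0.26 (adjusted p = 0.030). The groups did not overlap, but leaving out any 1 of the 6 libraries lost the call (adjusted p = 0.0695 to 0.122). It had 623, 998 and 436 CPM in LNB and 637, 486 and 613 CPM in Neuron, and no later step was called. Mapt (ENSMUSG00000018411, chromosome 11, 104229409 to 104332090), which encodes the axonal protein tau, had 296, 249 and 297 CPM in NSC, 318, 407 and 377 CPM in ENB, 408, 590.3 and 239 CPM in LNB and 497, 381 and 347 CPM in Neuron. None of its total mRNA comparisons was called, and neurons exceeded stem cells by 0.48 ± 0.26 (adjusted p = 0.21), although the groups did not overlap. A p above the threshold does not show that tau mRNA was level.

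Map4 (ENSMUSG00000032479, chromosome 9, 109929841 to 110083954) had 294, 518 and 418 CPM in Neuron, against 157, 240.4 and 168 CPM in NSC, a rise of 1.06 ± 0.24 (adjusted p = 0.0086). Its deposited TPM gave another picture: 283, 338 and 249 in Neuron, against 424, 203 and 406 in NSC, and limma on log2(TPM + 1) put the change at -0.18 (adjusted p = 0.68). In NSC libraries 1 and 3 the authors' estimated counts of Map4 were 2.23 and 3.24 times its raw counts, against 1.92 in NSC library 2 and 1.77 to 1.83 in Neuron, while over all genes that ratio was 1.62 to 2.50. Tested as rounded whole numbers, the estimated counts also gave a rise, 0.75 (adjusted p = 0.026), so raw and estimated counts had Map4 higher in Neuron and TPM did not. The highest Map4 level, 518 CPM, was that of Neuron library 2, without which the call was kept. Its place as the member with the highest mean TPM in NSC (344 ± 123, SD, n = 3) rests on those TPM.

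Map6 (ENSMUSG00000055407, chromosome 7, 99266779 to 99337137), the cold-stabilising MAP also called STOP, had the largest rise of any member in neurons over late neuroblasts. It had 133, 108 and 110.0 CPM in Neuron, against 27.3, 21.6 and 7.94 CPM in LNB, a change of 2.57 ± 0.48 or 5.95-fold (adjusted p = 0.0045), and 2.46 without LNB libraries 1 and 3 (adjusted p = 0.047). NSC had 27.6, 31.5 and 28 CPM and ENB 24.9, 6.73 and 16.5 CPM, and the ENB change of -0.85 ± 0.46 was not called (adjusted p = 0.26). Over NSC, neurons were higher by 1.95 ± 0.47 (adjusted p = 0.011). Beside these changes of Map6 and Map1a, the 8 glutamatergic neuron markers summed to 818 to 1063 CPM in Neuron, against 83.5 to 251 CPM in LNB, and 2 of them were called higher. The 10 oligodendrocyte markers summed to 1978 to 9166 CPM in Neuron, against 1562 to 3160.4 CPM in LNB, so these sums overlapped. EdgeR called 0 of the 10, with 3 higher at an unadjusted p under 0.05 (median 3.40). The part of these cells in the changes was not tested.

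Pafah1b1 (ENSMUSG00000020745, chromosome 11, 74673949 to 74724384), which encodes LIS1, the partner of dynein in nuclear migration, had 237, 215 and 138 CPM in Neuron, against 117, 97.5 and 95.1 CPM in NSC. All Neuron libraries were higher, by 0.87 ± 0.24 or 1.83-fold (adjusted p = 0.022), and the call was lost without NSC library 2 or 3 or Neuron library 1 or 2 (adjusted p = 0.0619 to 0.0898). ENB had 127, 125 and 132 CPM and LNB 126, 168 and 86.3 CPM, with no neighbouring step called. LNB library 3 was the lowest of its group for all 10 members, and LNB library 2 the highest for all but Map1a and Map6.

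The summed TPM of the 10 members was 1034 ± 201 in NSC, 1928 ± 198 in ENB, 1605 ± 566 in LNB and 1329 ± 40.5 in Neuron (SD, n = 3 each). Dcx made up 3.25%, 12.9%, 15.2% and 3.88% of that sum in NSC, ENB, LNB and Neuron, and Map6 1.51%, 0.333%, 0.474% and 4.58%. In the order by mean TPM, Map2 led in ENB (376 ± 9.13), above Map1b (310.2 ± 45.1) with no overlap, while Map1b, Dclk1, Dclk2, Dcx and Map4 followed each other with overlapping ranges. In LNB neighbours overlapped from Map2 at 292 ± 138 down to Dclk2 at 128 ± 55.3. Map1a had the lowest mean in every stage, although its range overlapped that of Map6 in ENB and LNB, from 3.49 ± 1.43 TPM in ENB to 29.5 ± 5.83 TPM in Neuron (SD, n = 3 each).

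The precipitates were first set against the controls of their own tissue, which show what binds without the HA tag. In NSC 1 of 10 members stood above the SVZ control (Dcx), with 15.3% of all 19066 genes called (8.75% higher, 6.59% lower). In ENB 2 did (Dcx and Map1b), with 1.52% of all genes called (0.708% higher, 0.813% lower). In LNB 4 stood above the OB control (Dcx, Dclk2, Map1b and Mapt), with 10.1% of all genes called (7% higher, 3.06% lower), and in Neuron 2 (Dclk2 and Map4), with 27.4% called (11.6% higher, 15.7% lower). No member was called lower than its control in edgeR; at an unadjusted p under 0.05, 2 were lower in NSC, Dclk1 and Map1a, and DESeq2 called 1 of them, Dclk1. The NSC and ENB precipitates share their controls, as do LNB and Neuron.

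Dcx had 83.8 and 142 CPM in NSC precipitates and 177 and 437 CPM in ENB precipitates, against 33, 57.5 and 44.9 CPM in the SVZ controls. It was higher by 1.29 ± 0.34 in NSC (adjusted p = 0.020) and by 2.71 ± 0.35 in ENB (adjusted p = 0.0014). The NSC call was lost without NSC library 2, SVZ control 1 or SVZ control 3 (adjusted p = 0.238, 0.0528 and 0.0627), and the ENB call without ENB library 2 (adjusted p = 0.0707). In LNB it was 904, 776 and 1129.6 CPM, against 308, 352 and 302 CPM in the OB controls, higher by 1.64 ± 0.31 (adjusted p = 0.0098), or 0.0616 without LNB library 3. Neuron precipitates had 225 and 248 CPM, below all OB controls (-0.36 ± 0.34, adjusted p = 0.46). Of the 10 neuroblast markers 8 were also called above the SVZ control in NSC precipitates (median 1.88) and 8 in ENB precipitates (median 2.22). In LNB 9 were above the OB control (median 2.49), and 0 were called lower in these stages. In Neuron 2 were called higher and 1 lower. The part of neuroblasts in the Dcx level of the NSC precipitates was not tested.

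Map1b had 1509 and 1749.5 CPM in ENB precipitates, against 474, 698 and 553 CPM in SVZ controls, a difference of 1.45 ± 0.26 (adjusted p = 0.0087). That call was lost without ENB library 2 (adjusted p = 0.158). LNB precipitates had 1687, 1576 and 1954 CPM, against 1067, 1179 and 802 CPM in OB controls (0.87 ± 0.24, adjusted p = 0.032). Mapt had 722, 789.8 and 893 CPM in LNB precipitates, against 455, 488 and 308 CPM in OB controls, 2.05-fold higher (1.03 ± 0.20, adjusted p = 0.010). With RLE scale factors Map1b and Dclk2 lost their LNB calls (adjusted p = 0.0723 and 0.114). Leaving out libraries ended the call of Map1b for any LNB library and OB control 1 or 3 (adjusted p = 0.0718 to 0.147), of Mapt for LNB library 2 or 3 (adjusted p = 0.051 and 0.0689), and of Dclk2 for any of the 6 libraries (adjusted p = 0.0676 to 0.163).

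Dclk2 had 216, 250.2 and 231 CPM in LNB precipitates, against 179, 155 and 149 CPM in OB controls (0.62 ± 0.18, adjusted p = 0.042), and in Neuron precipitates 284 and 216 CPM (0.72 ± 0.20, adjusted p = 0.017). Map4 had 516 and 468 CPM in Neuron precipitates, against 394, 351 and 189 CPM in OB controls (0.74 ± 0.26, adjusted p = 0.048). In TPM Map4 had 251 and 207 in Neuron precipitates, against 224, 193 and 265 in OB controls, and limma on log2(TPM + 1) gave 0.01 (adjusted p = 0.98). The Neuron call of Dclk2 was lost without Neuron library 1 (adjusted p = 0.163), and that of Map4 without any Neuron library or OB control 2 or 3 (adjusted p = 0.0527 to 0.169).

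Map1a and Map6 were never called above a control. Map1a had 318 and 189 CPM in NSC precipitates and 522 and 376 CPM in ENB precipitates, against 326, 362 and 368 CPM in SVZ controls. It had 476, 455 and 382 CPM in LNB and 547 and 463 CPM in Neuron precipitates, against 475, 377 and 499 CPM in OB controls. These levels lay above the 18.6 to 199.9 CPM of sorted cells in all but 1 precipitate, which had 189 CPM. Map6 likewise had 58.3 to 118 CPM over all 9 precipitates, against 66.8 to 103 CPM over the 6 controls. Pafah1b1, called at no control comparison, had 138 to 257 CPM in precipitates, against 103 to 174 CPM in controls. Dclk1 and Map2 were likewise not called against controls, with 423 to 1286 and 344 to 1024 CPM in precipitates, against 533 to 995 and 381 to 734 CPM in controls. The precipitates came from unsorted tissue: the 10 oligodendrocyte markers summed to 8173 to 9074 CPM in NSC and 20339.6 to 21106 CPM in ENB precipitates, against 17826 to 22120.3 CPM in SVZ controls, and the 8 striatal projection neuron markers to 3509 to 4327 and 6049.5 to 6121 CPM, against 5466 to 6918 CPM. Sorted NSC and ENB had 298 to 3092 and 1153 to 2968 CPM of the oligodendrocyte markers.

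**Figure D3:**
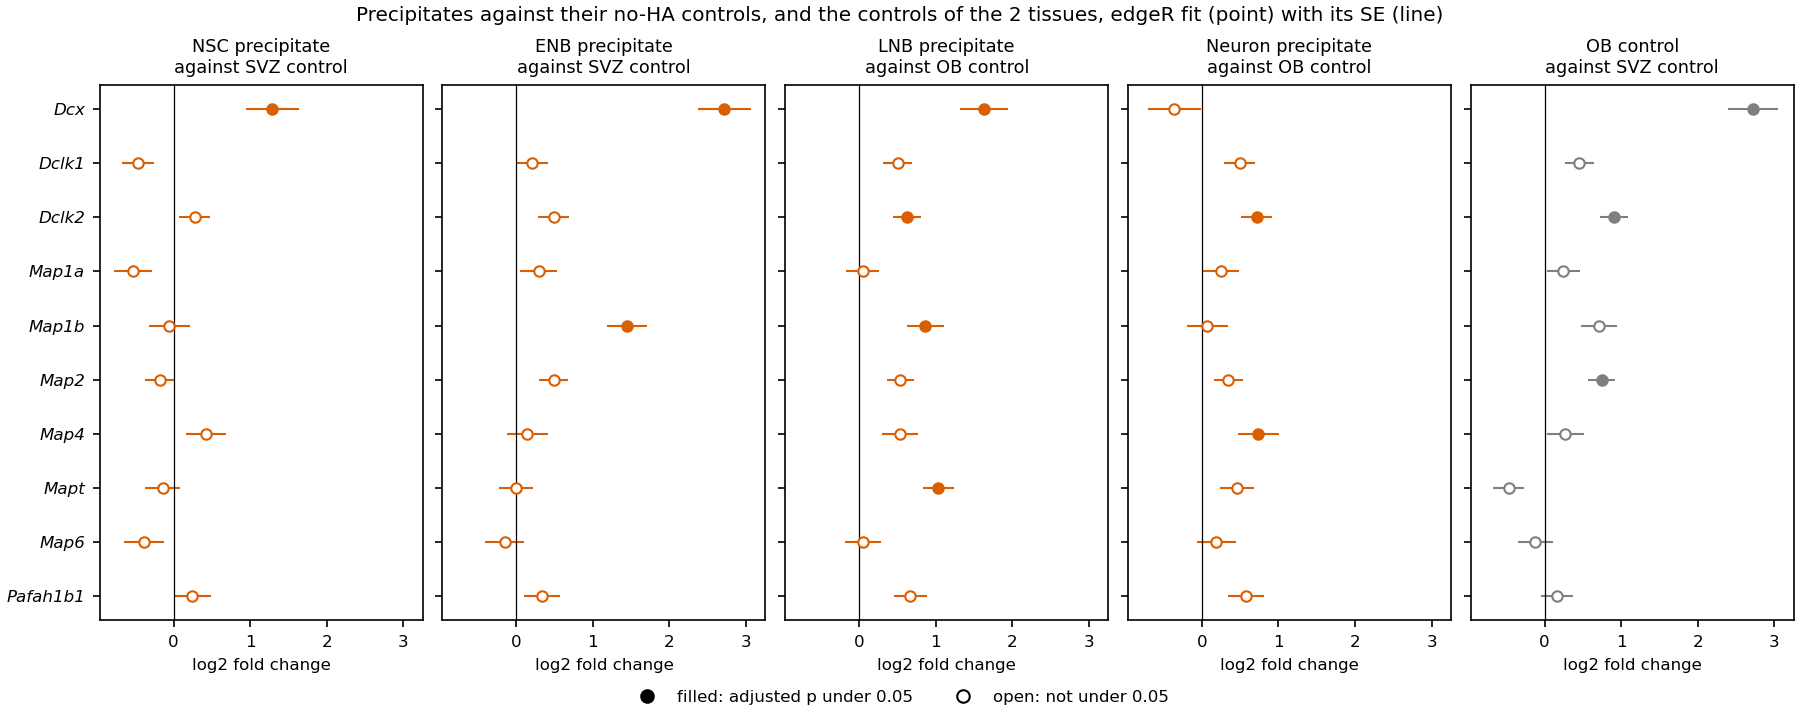
Log2 fold change (x) of each member (y) with its SE for the precipitate of each stage against the no-HA control of its tissue, and for the OB control against the SVZ control. Filled points passed an adjusted p of 0.05. Dcx is called above control in NSC, ENB and LNB, and the OB control exceeds the SVZ control for Dcx by 2.72.

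The 2 controls differed from each other for 3 of 10 members, with 11.8% of all genes called (5.65% higher, 6.12% lower). Dcx had 308, 352 and 302 CPM in OB controls, against 33, 57.5 and 44.9 CPM in SVZ controls, 6.58-fold higher (2.72 ± 0.33, adjusted p = 2.8e-05). Dclk2 was higher by 0.91 ± 0.19 (adjusted p = 0.0034) and Map2 by 0.74 ± 0.17 (adjusted p = 0.0083). Leaving out any 1 control kept these calls. The names of OB controls 1 and 2 carry 3 with d, while that of OB control 3 carries 4 with wpi, and this library stood apart. Its stem cell markers summed to 1409 CPM, against 2744 and 2880 CPM in OB controls 1 and 2, and its microglia markers to 179 CPM, against 584 and 603 CPM. Mapt was at 308 CPM in it, against 455 and 488 CPM, and Map4 at 189 CPM, against 394 and 351 CPM. The part of this library in the comparisons with the OB control was tested only by leaving it out, as given above.

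These differences bear on the step from ENB to LNB in ribosome-bound mRNA, where the tissue changes too. In that step 4 of 10 members rose (Dcx, Dclk1, Dclk2 and Map2), with 12.9% of all genes called (6.81% higher, 6.05% lower). Dcx had 904, 776 and 1129.6 CPM in LNB, against 177 and 437 CPM in ENB (1.64 ± 0.36, adjusted p = 0.0065). Dclk1 had 1286, 1161 and 1168 CPM in LNB, against 745 and 721 CPM in ENB (0.75 ± 0.21, adjusted p = 0.028). Dclk2 rose by 1.04 ± 0.21 (adjusted p = 0.0037), and Map2, with 1024, 897 and 962 CPM in LNB, against 617 and 517 CPM in ENB, by 0.80 ± 0.20 (adjusted p = 0.013).

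When each stage was taken relative to its own control, edgeR called 0 of the 10 members in that step, and 2 had an unadjusted p under 0.05, where 0.399% of all genes were called. Dcx then changed sign, to -1.08 (adjusted p = 0.35), Dclk1 stood at 0.30, Dclk2 at 0.13 and Map2 at 0.05. ENB library 1 and LNB library 1 came from the same mouse, as did libraries 2, and with the animal as a term 2 of 10 members were called, Dcx and Dclk2, beside 6.38% of all genes. Without ENB library 1 edgeR called 0 members, beside 6.14% of all genes, with 5 members at an unadjusted p under 0.05 (adjusted p = 0.0985 for Dcx, 0.143 for Dclk1, 0.069 for Dclk2 and 0.0522 for Map2), Map2 was also lost without ENB library 2 (adjusted p = 0.131), and Dclk1 without any 1 of the 5 libraries (adjusted p = 0.0745 to 0.143).

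Within a tissue both stages share their controls, but the share of other cells in the precipitates differed. Of the 10 oligodendrocyte markers 3 were called higher in ENB against NSC precipitates (median 0.84) and 5 lower in Neuron against LNB precipitates (median -1.17). Of the 10 neuroblast markers edgeR called 0 in ENB against NSC precipitates, where 1 was higher and 1 lower at an unadjusted p under 0.05 (median 0.02), and their sums were 1558 and 3403 CPM in ENB, against 1835 and 2485 CPM in NSC. The part of these cells in the steps was not tested. In ribosome-bound mRNA of ENB against NSC 2 of 10 members rose, Dcx and Map1b, with 8.28% of all genes called (3.44% higher, 4.85% lower). Dcx rose by 1.42 ± 0.38 or 2.68-fold (adjusted p = 0.032), where ENB libraries were apart at 177 and 437 CPM, against 83.8 and 142 CPM in NSC libraries. Map1b had 1509 and 1749.5 CPM in ENB, against 667 and 475 CPM in NSC, a rise of 1.51 ± 0.30 or 2.84-fold (adjusted p = 0.0072). Without ENB library 2 neither was called (adjusted p = 0.372 and 0.052), nor was Dcx without NSC library 1 (0.197) or Map1b without NSC library 2 (0.0725). In Neuron against LNB 1 of 10 changed, with 4.13% of all genes called (0.378% higher, 3.75% lower): Dcx had 225 and 248 CPM in Neuron, against 904, 776 and 1129.6 CPM in LNB, a fall of 2.00 ± 0.37 on the log2 scale, 3.99-fold (adjusted p = 0.0057), which no left-out library ended. Map1b had 1221 and 796 CPM in Neuron, below the LNB range, but its change of -0.80 ± 0.27 was not called (adjusted p = 0.12).

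**Figure D4:**
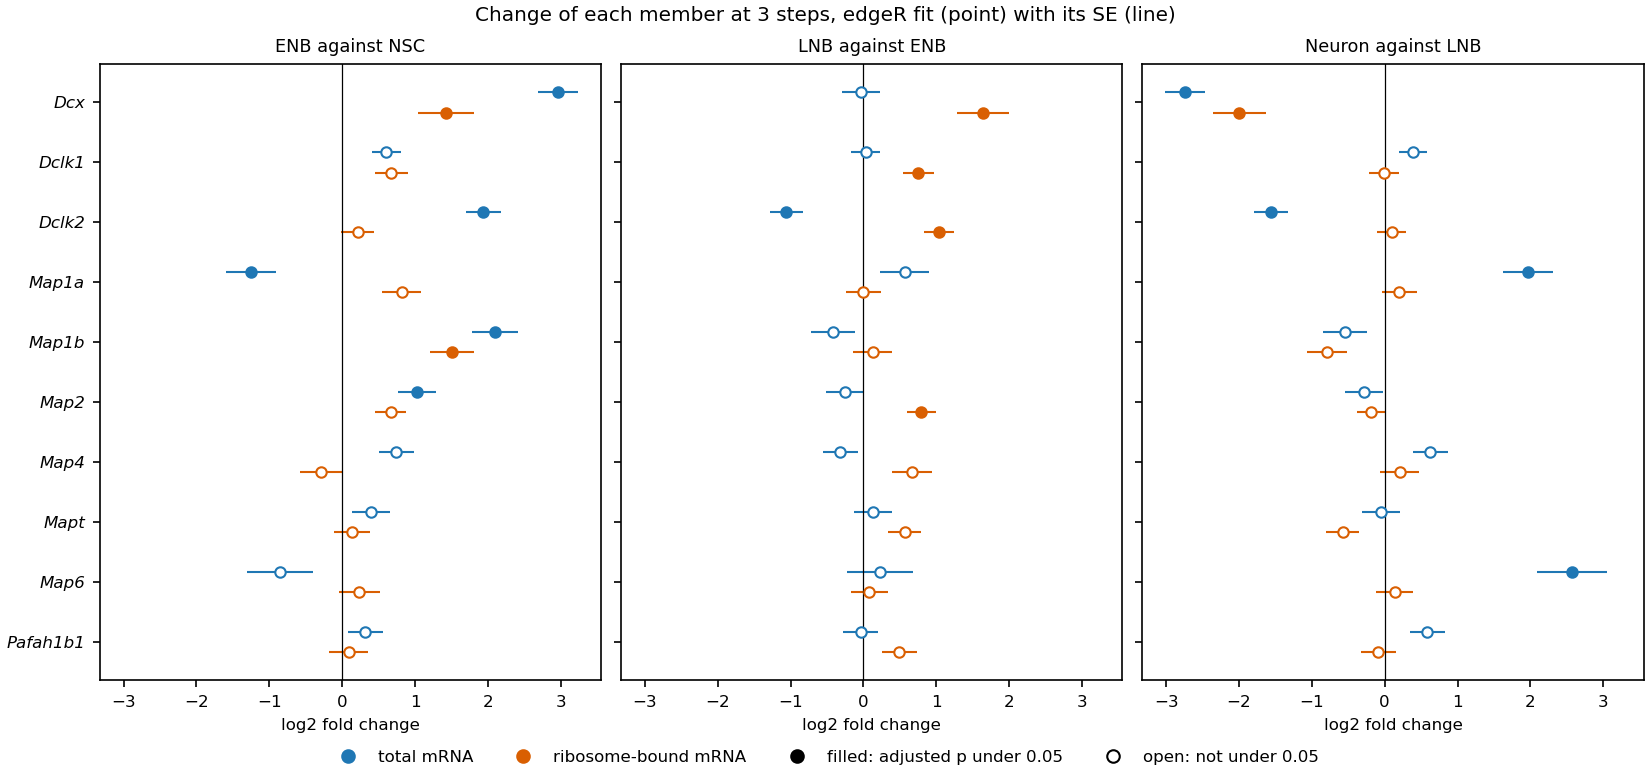
Log2 fold change (x) of each member (y) with its SE at 3 steps, in total mRNA (blue) and ribosome-bound mRNA (orange); filled points passed an adjusted p of 0.05. Dcx and Map1b rise in both kinds of mRNA in ENB against NSC, while Dclk2 is called in total mRNA alone at the ENB and Neuron steps and in opposite directions in LNB against ENB.

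Whether a step differed between ribosome-bound and total mRNA was tested as an interaction over the 21 libraries without the controls, so the background of the precipitates remains in these values. For ENB against NSC 2 of 10 members differed, with 2.81% of all 19913 genes called (1.49% higher, 1.32% lower). Dclk2 moved less in ribosome-bound mRNA (-1.56 ± 0.32, adjusted p = 0.015): its precipitates had 104 and 127 CPM in ENB, against 101 and 97 CPM in NSC, where the sorted cells changed 3.84-fold. Map1a differed by 2.23 ± 0.47 (adjusted p = 0.017), with its precipitates in neither stage called above the control. Both calls were lost without NSC precipitate 2 (adjusted p = 0.0833 and 0.144) or ENB precipitate 1 (0.102 and 0.109). Dclk2 also lost it without NSC precipitate 1 (0.0565), and Map1a without NSC total library 3 (0.0562).

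For LNB against ENB 1 of 10 differed, with 6.15% of all genes called (1.89% higher, 4.26% lower). Dclk2 rose in ribosome-bound mRNA while it fell in total mRNA, a difference of 1.99 ± 0.31 (adjusted p = 0.0023) that no single left-out library ended. Without LNB total libraries 1 and 3 this difference was 1.57. Taken relative to its own control, the ribosome-bound step of Dclk2 was 0.13 (adjusted p = 0.88 in edgeR). Dclk2 averaged 161 CPM in OB controls, against 79.5 CPM in SVZ controls, and its ENB precipitates were not called above control. The part of this background in the difference was not tested, and the fall in total mRNA was not firm, as given above. For Neuron against LNB 3 of 10 differed, with 3.15% of all genes called (1.46% higher, 1.69% lower): Dclk2 by 1.65 ± 0.30 (adjusted p = 0.0092), Map1a by -1.77 ± 0.45 (adjusted p = 0.041) and Map6 by -2.44 ± 0.60 (adjusted p = 0.035). Dclk2 lost that call without Neuron precipitate 1 (adjusted p = 0.0863). Map1a lost it without any LNB or Neuron precipitate, LNB total library 1 or 3 or Neuron total library 1 (adjusted p = 0.0556 to 0.206), and Map6 without any LNB or Neuron precipitate (adjusted p = 0.0687 to 0.218) and with expected counts (adjusted p = 0.0797). Without LNB total libraries 1 and 3 only Dclk2 was called of the 10 members, at 2.17 (adjusted p = 0.0014), with 3.97% of all genes called, while Map1a stood at -1.61 (adjusted p = 0.10) and Map6 at -2.26 (adjusted p = 0.055). Dcx was not called in any of the 3 (adjusted p = 0.14, 0.053 and 0.39). That does not show that its steps were alike in both kinds of mRNA.

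The partners of these proteins were described from 5 lists. Of 31 other microtubule-binding and end-binding genes, 10 rose and 2 fell in total mRNA of ENB against NSC (median 0.43, against -0.01 over all genes), beside 4.95% higher and 5.12% lower over all genes. In ribosome-bound mRNA of that step 1 rose and 0 fell (median -0.04, against 0.02 over all genes), beside 3.44% and 4.85%. In total mRNA of LNB against ENB 1 rose and 4 fell, beside 2.8% and 0.966%, and in that of Neuron against LNB 5 rose and 7 fell, beside 5.33% and 9.34%. Without LNB libraries 1 and 3, edgeR called 0 of them in LNB against ENB, with 4 higher and 4 lower at an unadjusted p under 0.05. In Neuron against LNB it then called 7 lower and 0 higher, with 5 higher at an unadjusted p under 0.05. The spindle proteins Nusap1 and Prc1 fell in LNB against ENB, by 3.52 ± 0.71 and 3.00 ± 0.49 on the log2 scale, and Tpx2, which nucleates spindle microtubules, fell by 4.19 ± 0.71 in Neuron against LNB. Tppp, a tubulin polymerisation-promoting protein best known from oligodendrocytes, rose by 3.99 ± 0.83 in Neuron against LNB, beside the oligodendrocyte marker sums given above. Without LNB libraries 1 and 3 Tpx2 stayed called at -3.91 (adjusted p = 0.016), while Nusap1 stood at -2.66 (adjusted p = 0.60), Prc1 at -2.85 (adjusted p = 0.27) and Tppp at 3.51 (adjusted p = 0.11).

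Of 25 dynein, dynactin and LIS1-partner genes, 7 rose and 1 fell in total mRNA of ENB against NSC (median 0.41), beside 4.95% and 5.12% of all genes, and 2 rose and 5 fell in Neuron against LNB (median -0.19, against -0.18 over all genes), beside 5.33% and 9.34%. The last counts were 1 and 4 without LNB libraries 1 and 3. Pafah1b3, a catalytic partner of LIS1 in the platelet-activating factor acetylhydrolase, rose by 1.31 ± 0.37 in ENB against NSC (adjusted p = 0.045) and fell by 2.33 ± 0.39 in Neuron against LNB (adjusted p = 0.0023). Dync1i1, the neuronal dynein intermediate chain, rose by 2.66 ± 0.55 in LNB against ENB and by 2.95 ± 0.55 in Neuron against LNB. Without LNB libraries 1 and 3 Pafah1b3 was at -2.73 in Neuron against LNB (adjusted p = 0.0025), and Dync1i1 was called in neither step (3.17 and 2.48, adjusted p = 0.17 and 0.13). In ribosome-bound mRNA of ENB against NSC 0 of the 25 rose and 1 fell (median -0.31, against 0.02 over all genes), beside 3.44% and 4.85%. In the precipitates 14 of the 25 stood above and 1 below the OB control in LNB (median 0.75, against -0.08 over all genes), beside 7% and 3.06% of all genes. In Neuron 13 stood above and 2 below (median 0.83, against -0.21), beside 11.6% and 15.7%.

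Of 14 axonal transport kinesins 6 rose in total mRNA of ENB against NSC with no call in the other direction, beside 4.95% of all genes called higher. Kif21b led them at 2.73 ± 0.33. It fell again by 1.85 ± 0.31 in Neuron against LNB and, without LNB libraries 1 and 3, by 2.12. In ribosome-bound mRNA of ENB against NSC edgeR called 0 of the 14 (median 0.43, against 0.02 over all genes), beside 3.44% higher and 4.85% lower. Of 32 kinases and phosphatases that act on these proteins, 14 were higher and 1 lower in Neuron against NSC (median 0.79, against -0.06 over all genes), beside 11% and 12.8% of all genes. Oligodendrocyte precursor and glutamatergic neuron markers were also called higher there, as given above, and their part in these counts was not tested. Cdk5r1, the activator of Cdk5 known as p35, rose by 2.36 ± 0.42 in ENB against NSC, and the calmodulin kinase subunits Camk2b and Camk2a rose by 3.68 ± 0.51 and 3.48 ± 0.56 in Neuron against LNB. Camk2b was at 3.52 (adjusted p = 0.037) and Camk2a at 2.86 (adjusted p = 0.058) without LNB libraries 1 and 3. Of 24 tested severing and tubulin-modifying genes, 3 were called in total mRNA of ENB against NSC, all higher, beside 4.95% higher and 5.12% lower over all genes. Among them were the tubulin polyglutamylase subunit Ttll1 (1.73 ± 0.26) and the tubulin acetyltransferase Atat1 (1.73 ± 0.29). In ribosome-bound mRNA of ENB against NSC edgeR called 0 of these 24 genes, beside 8.28% of all genes. List changes are in total mRNA unless precipitates or ribosome-bound mRNA are named. Apart from those without LNB libraries 1 and 3, all are from the same edgeR fits with adjusted p under 0.05.

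Across the 27 libraries, which differ in tissue, kind of mRNA and depth, Dcx varied most closely with Map1b (Pearson r = 0.842 on log2(CPM + 1)) and Dclk2 (0.830), and Map1a with Map6 (0.854), while Dclk2 and Map6 ran against each other (-0.716). Among 11403 genes with a mean of at least 10 CPM, the genes most like Dcx were Prkab1 (r = 0.936), Ncam1 (0.924) and Etv1 (0.923). Dclk2 was most like the interneuron transcription factor Dlx5 (0.941), Map1b most like the receptor Erbb4 (0.906), Map1a most like the calcium pump Atp2b2 (0.974), Map6 most like Hs6st2 (0.955) and Dclk1 most like Prkca (0.933). Map2, Mapt, Pafah1b1 and Map4 were most like Rere (0.889), Bcl11b (0.882), Hnrnpul2 (0.895) and Pak1 (0.866), in that order. Levels of Map1a above those of sorted cells in all but 1 precipitate and in all controls are part of its correlations.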

How the data were processed

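Total mRNA of sorted cells and HA-precipitated mRNA were sequenced as Smart-seq2 libraries, per the labels' protocols. RSEM 1.2.21, Bowtie2 2.2.6 and the build GRCm38 are named in the submitters' processing notes. The authors deposited raw counts per Ensembl gene, made with a tool not given in the sources used here. The deposited estimated counts need not be whole and were rounded before use. The authors also deposited TPM, and 92 TPM entries without a gene ID were left out. Symbols were matched for 44548 of 45195 genes.

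Raw counts were tested with edgeR 4.0.16 in R 4.3.3 (TMM, filterByExpr, quasi-likelihood test) in 3 fits: 12 total libraries (17592 genes), 15 precipitates and controls (19066 genes) and 21 libraries of both kinds without controls (19913 genes), for 15 comparisons. DESeq2 1.42.0, limma 3.58.1 on log2(TPM + 1) for genes of at least 1 TPM in 2 libraries, and other settings were alternatives. Counts were also simulated at a dispersion of 0.1, a set value not estimated from these libraries. For LNB against ENB, 4-fold changes were recovered for 95 of 100 genes in total mRNA and 75 of 100 in ribosome-bound mRNA. Of 2-fold changes, 11 of 100 were recovered in each. The interaction test of Neuron against LNB recovered fewer, 38 of 100 genes at 4-fold and 3 of 100 at 2-fold. All 10 members were tested in each comparison; named besides were at most 2 called genes per list and up to 3 genes most like each member. The members and lists were chosen with earlier results of these data known. ENB and LNB precipitates 1 and 2 share their animals and numbers; elsewhere the numbers do not pair libraries by animal. Replicate libraries had Spearman correlations of 0.880 to 0.956 over 24 pairs, and none was treated as a copy. Promoter windows came from RefSeq's GRCm38.p6 annotation.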

Additional observations from a re-analysis of the deposited data

Results flagged for a closer look

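The step between stages differed between ribosome-bound and total mRNA for 3 members, by the interaction test in edgeR. Dclk2 differed at each step, by -1.56 in ENB against NSC, 1.99 in LNB against ENB and 1.65 in Neuron against LNB. Its ENB against NSC call was lost without NSC precipitate 1, NSC precipitate 2 or ENB precipitate 1, and its Neuron against LNB call without Neuron precipitate 1. Map1a differed by 2.23 in ENB against NSC and by -1.77 in Neuron against LNB, and Map6 by -2.44 in Neuron against LNB. Each of these Map1a and Map6 calls was also lost on leaving out some single libraries, as given above. In Neuron against LNB Map1a and Map6 were not called without LNB total libraries 1 and 3 (adjusted p = 0.10 and 0.055). Map1a and Map6 were not called above the no-HA control in any precipitate, and Dclk2 not in those of NSC and ENB; the part of the control background in these differences was not tested.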

How the results depend on the processing

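Of 150 member values (10 members in 15 comparisons) 41 were called as reported, 27 only under some alternative and 82 under none; the last carry no direction and are left out here. DESeq2 kept all 41 calls, expected counts 40, RLE scale factors 37, the replicate block 37 and no low-count filter 36. RLE scaling moved the median of all genes by 0.16 in Neuron against LNB and 0.12 in Neuron against NSC (total mRNA), -0.14 in LNB against ENB (ribosome-bound) and -0.16 in LNB against the OB control. Values that reversed were Map4 on log2(TPM + 1) in total mRNA (-0.55 in ENB against NSC, -0.18 in Neuron against NSC) and Dcx at -1.08 in ribosome-bound LNB against ENB relative to the controls. The cause was not tested.

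Beside left-out libraries, these settings ended calls of members. The replicate block ended Map1a in ENB against NSC and Dclk2 in LNB against ENB (total mRNA), Dclk2 in LNB and Map4 in Neuron against the OB control. The index term ended Map1a in ENB against NSC, Dclk2 in LNB against ENB and Map1b, Map6 and Pafah1b1 in Neuron against NSC (total mRNA), Dclk1 in ribosome-bound LNB against ENB, Dcx in NSC, and Map1b in ENB and LNB against controls. Limma on TPM ended Map1a in ENB against NSC, Dclk2 in LNB against ENB and Pafah1b1 in Neuron against NSC (total mRNA), Dcx in NSC and Map4 in Neuron against controls. RLE ended Dclk1 in ribosome-bound LNB against ENB, Dclk2 and Map1b in LNB and Map4 in Neuron against control, and the unfiltered fit ended Dclk1 and Map2 in that step, Dclk2 in LNB, and Dclk2 and Map4 in Neuron against control.

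Counts of called members that moved by over 1.5 times were as follows, each with the share of all genes called in that setting. In total mRNA, LNB against ENB (1 as reported) gave 0 with limma (3.22%), with the second sequencing index as a term (0.881%), with the replicate block (1.17%) and without LNB libraries 1 and 3 (0.0383%); Neuron against LNB (4) gave 7 with DESeq2 (22.6%); Neuron against NSC (6) gave 3 with the index term (18.4%). In ribosome-bound mRNA, ENB against NSC (2) gave 5 with DESeq2 (15.6%) and 4 with expected counts (7.93%) and with limma (9.48%); LNB against ENB (4) gave 2 without the filter (10.5%) and with the animal term (6.38%), and 0 relative to the controls (0.399%); Neuron against LNB (1) gave 2 with DESeq2 (9.93%) and with the index term (3.53%). Against controls, NSC (1) gave 2 with DESeq2 (22.1%) and 0 with the index term (6.17%), ENB (2) gave 4 with limma (5.93%) and 1 with the index term (1.25%), LNB (4) gave 2 with RLE (7.47%), and Neuron (2) gave 1 with RLE (27.1%), 0 without the filter (19.3%), 1 with the replicate block (21.3%) and 4 with the index term (28.1%). OB against SVZ control (3) gave 5 with DESeq2 (16.5%) and 6 with limma (26.4%). The interaction of LNB against ENB (1) gave 2 without the filter (4.17%) and with DESeq2 (13.6%), and that of Neuron against LNB (3) gave 1 without LNB libraries 1 and 3 (3.97%).

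Leaving out 1 library gave 3 to 4 called members for ENB against NSC, 0 to 1 for LNB against ENB, 4 to 5 for Neuron against LNB and 3 to 6 for Neuron against NSC in total mRNA. In ribosome-bound mRNA it gave 0 to 2, 0 to 3 and 1 to 1 for the steps to ENB, LNB and Neuron, and against the controls 0 to 1 for NSC, 0 to 2 for ENB, 0 to 3 for LNB and 1 to 2 for Neuron, with 3 to 5 for OB against SVZ control. The interactions gave 0 to 3 for ENB against NSC, 1 to 4 for LNB against ENB and 0 to 3 for Neuron against LNB. To see whether replicate numbers pair libraries, each gene's group mean was taken off its log2(CPM + 1). These deviations, not the levels, correlated between libraries of the same number at -0.2 to 0.103 over 18 pairs in total mRNA. In the precipitates they did so at -0.0916 to 0.177 over 12 pairs, where the deviations of a group of 2 libraries mirror each other. Within the second index shared by libraries of both stages, called members of the total mRNA steps kept their sign; no Neuron library carried index 2. With 2 to 3 libraries a group, 2-fold changes were mostly missed in simulated counts, so a member without a call is not shown to be level.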
